A study of Homo sapiens with 10 samples.

Results

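The fibroblast growth factor (FGF) ligands and receptors examined here are 10 genes: the ligand genes FGF1, FGF2, FGF5, FGF7, FGF9, FGF10 and FGF18, the receptor genes FGFR1 and FGFR2, and FGFRL1. Their members were taken as every probe set that the platform's annotation assigns to exactly 1 gene symbol and to a symbol in that group, which gave 40 of the 54675 probe sets on the array. Expression had been measured on Affymetrix arrays, with 5 arrays of proliferating and 5 of senescent IMR90 cells, a normal human fibroblast line from fetal lung. Proliferating cells were at 28 population doublings. Senescent cells were at 90, had been passaged until they stopped dividing and were then kept in dishes for 2 weeks. Both states were cultured in 10% serum and 3% oxygen, no gene was altered in either of them, and growth state and number of doublings differ together. Whether the 5 arrays of a state stem from different cultures is not stated, and each p-value here reflects array-to-array spread that may be purely technical.

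FGFs are secreted proteins that bind heparan sulfate chains on and around cells and, together with those chains, join and activate receptor tyrosine kinases. The activated receptor signals through the adaptor FRS2 and the RAS-ERK cascade, which in turn induces inhibitors of the same pathway such as sprouty proteins and ERK phosphatases. In the lung, mesenchymal FGF7 and FGF10 act on the epithelium through an FGFR2 isoform that fibroblasts normally do not make, FGF9 acts on the mesenchyme, and FGF2 is a classical mitogen of fibroblasts.

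Values are the deposited log2 values, so a difference of 1 is a 2-fold change, and each probe set has its own scale, so levels are not compared between probe sets. Array medians lay between 3.05 and 3.12, and correlations over all probe sets were 0.996 to 0.998 within a group and 0.967 to 0.971 between groups. A probe set is said to have low signal in a group where it lay below its array's 60th percentile, a value of 4.63 to 4.76, on all 5 arrays of that group. Rose and fell are used where limma's adjusted p, over 54613 probe sets, was below 0.05. Of 12 fibroblast markers 0 had low signal in both groups, whereas 8 of 8 measured leukocyte, 9 of 10 endothelial and 6 of 10 epithelial markers had low signal in both. Fibroblast markers also moved, 4 higher and 5 lower, with POSTN lower by 3.31 and FAP by 1.69 on the log2 scale and LUM higher by 1.49. Of 7 smooth muscle markers 1 had low signal in both groups, 3 rose and 2 fell (SYNPO2 by 4.00 higher, MYOCD by 2.77 lower). The other fall, MYH11, was read at its probe set with the highest mean, and 3 of its 7 probe sets were called higher. The summed log2 value of the 7 markers was 46.5 to 48.4 on proliferating and 48.5 to 49.8 on senescent arrays. Such a sum adds probe sets that each have their own scale. It includes the SYNPO2 rise of 4.00, so more smooth muscle signal is not read from it. The part of these shifts in the results was not tested. As bulk RNA was measured, fewer cells of a type and less RNA per cell cannot be told apart. The 3' minus 5' signal of the ACTB controls, a sign of RNA integrity, averaged 2.07 ± 0.14 on the proliferating arrays against 2.32 ± 0.10 on the senescent ones (SD, n = 5 each). Its ranges, 1.84 to 2.19 and 2.24 to 2.47, did not overlap. A fit with this signal therefore cannot tell RNA integrity from growth state, whether a call is lost or gained. For the members and the genes named from the pathway lists, values with the ACTB signal as a covariate are given where they change a call.

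In senescent cells 3 ligand genes were clearly higher, FGF9, FGF7 and FGF2, FGF1 was modestly higher on 2 of its 3 probe sets, and FGF5 was slightly lower on 2 of 3. None of the 7 probe sets of FGFR1 rose or fell, and FGF10 and FGF18 had low signal in both groups. Of the 40 probe sets 9 rose and 2 fell, which is 27.5%, against 30.5% called among all probe sets (15.7% higher and 14.8% lower). The share of members called is near the background. Of the 19 members that exceeded the 60th percentile on at least 1 array 10 were called, against 63.9% of all such probe sets, and nothing is read from it, since a member can pass through its high group alone. The members' median difference was 0.03 against 0.02 for all probe sets. Of the members 21 had low signal in both groups, 24 lay above their array's 40th percentile on at least 5 arrays, and 17 lay above the 60th on at least 5. Groups did not overlap for 10 members, 8 of them higher in senescent cells, where 28.1% of all probe sets had groups without overlap. Read at the probe set with the highest mean of each gene, 6 of the 10 genes rose and 0 fell (limma, with 0 lower at an unadjusted p below 0.05), against 38.0% called among 19775 genes (19.4% higher and 18.6% lower). These counts depend on the probe set read. FGF5 is read at 210311_at, which was not called, while its other 2 probe sets fell. FGF1 is read at 1552721_a_at, which lost its call in 9 of 21 alternatives. FGFR2 is read at its only probe set without low signal, and FGFRL1 had low signal in both groups.

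**Figure D1:**
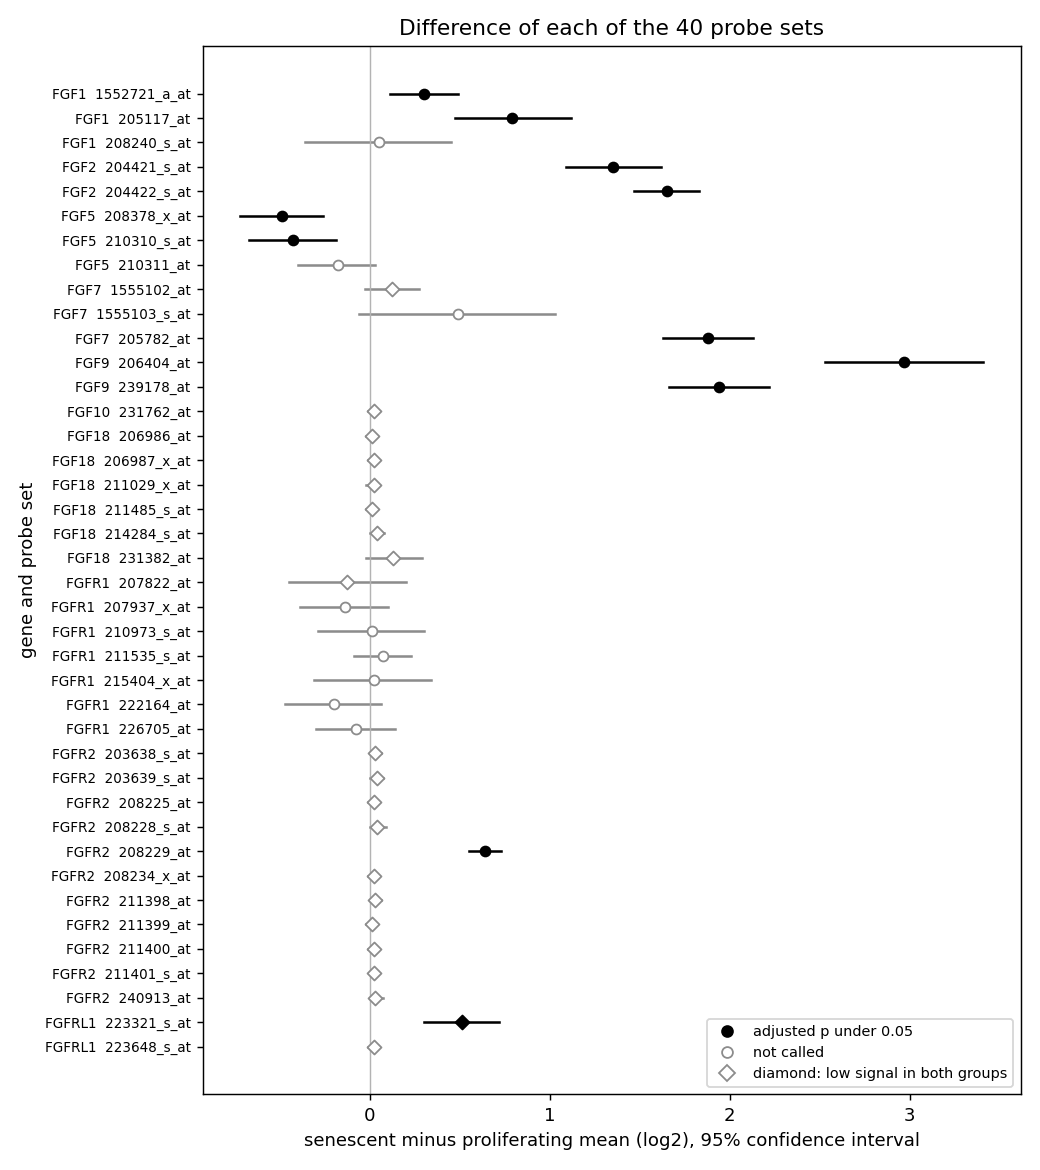
Each row is 1 of the 40 probe sets, with its senescent minus proliferating difference (log2) and the 95% confidence interval from limma. Filled symbols passed the adjusted threshold and diamonds had low signal in both groups. FGF9, FGF7 and FGF2 lie furthest to the right, and FGFR1, FGF10, FGF18 and all FGFR2 rows but 1 lie near 0.

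FGF9, a ligand that signals mainly to mesenchymal cells, had the largest difference of the group. On probe set 206404_at its values were 6.39, 6.37, 6.40, 6.39 and 5.61 on proliferating arrays 1 to 5 and 9.66, 9.34, 8.93, 9.09 and 8.98 on senescent arrays 1 to 5. Every senescent array lay above every proliferating array, and proliferating 5 was the lowest. FGF9 rose from 6.23 ± 0.35 to 9.20 ± 0.30 (SD, n = 5 each), a difference of 2.97 (SE 0.19, 7.83-fold, limma's adjusted p = 2.2e-06, exact permutation p = 0.00794). That permutation p, two-sided, is the smallest that all assignments of the arrays to the groups allow. The second FGF9 probe set, 239178_at, lay between 2.98 and 3.06 on proliferating and between 4.61 and 5.30 on senescent arrays, again without overlap. It rose by 1.94 on the log2 scale (SE 0.12, adjusted p = 1.8e-06), and as its proliferating signal was low the size of this fold depends on the background correction.

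FGF7, the keratinocyte growth factor, which fibroblasts secrete towards epithelial cells, rose on 1 of its 3 probe sets. Probe set 205782_at read 8.28, 7.86, 8.30, 8.02 and 7.79 in proliferating and 9.91, 9.80, 10.10, 9.95 and 9.88 in senescent cells. The groups were well apart and the senescent arrays close together. The mean rose from 8.05 ± 0.23 to 9.93 ± 0.11 (SD, n = 5 each), a difference of 1.88 (SE 0.11, 3.68-fold, limma's adjusted p = 9.7e-07). The other two FGF7 probe sets had weak signal: 1555102_at differed by 0.12 (adjusted p = 0.20) and 1555103_s_at by 0.49 (95% confidence interval -0.06 to 1.03, adjusted p = 0.16). With the mean of its 3 probe sets FGF7 differed by 0.83 (adjusted p = 0.00019). FGF7 has near-identical partial copies in the genome, and probe sets for those copies moved the same way. A probe set annotated to FGF7 together with the copies FGF7P3 and FGF7P6, and therefore no member, rose by 1.22 (SE 0.14), and the FGF7P3 probe set rose by 1.62 (SE 0.10), so signal of FGF7 and its copies cannot be fully separated.

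FGF2, or basic FGF, rose on both of its probe sets. Probe set 204422_s_at read 8.99, 8.79, 9.23, 9.21 and 8.95 in proliferating and 10.69, 10.71, 10.64, 10.72 and 10.65 in senescent cells. The senescent values lay within a narrow band above all proliferating ones. This was an increase from 9.03 ± 0.19 to 10.68 ± 0.04 (SD, n = 5 each), by 1.65 (SE 0.08, 3.14-fold, limma's adjusted p = 3.2e-07). The second probe set, 204421_s_at, spanned 8.03 to 8.64 in proliferating and 9.51 to 9.82 in senescent cells and rose by 1.35 (SE 0.12, 2.56-fold, adjusted p = 1.4e-05). NUDT6 lies on the opposite strand and overlaps FGF2 at its end, and it also rose, from 10.77 ± 0.15 to 11.96 ± 0.05 (SD, n = 5 each; limma's adjusted p = 9.1e-07). It was looked at as a neighbour of FGF2 after the member values were known.

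**Figure D2:**
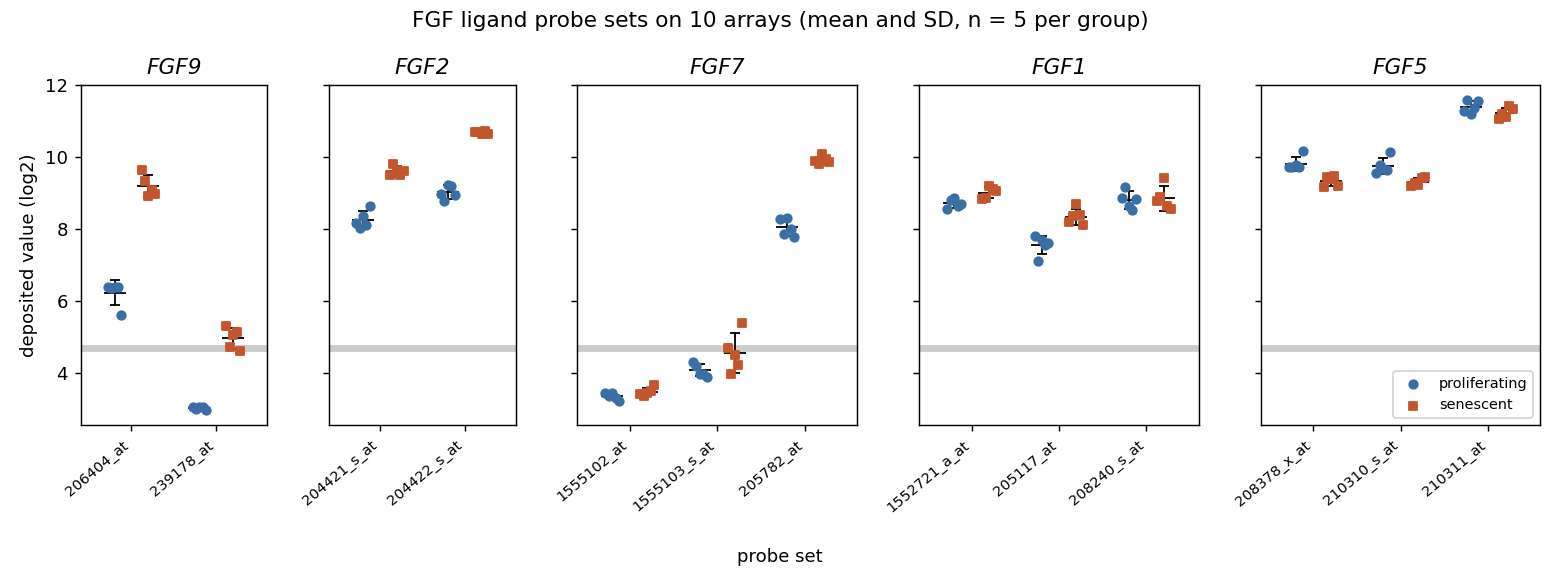
Deposited log2 values of the probe sets of FGF9, FGF2, FGF7, FGF1 and FGF5 (vertical axis) on 5 proliferating (circles) and 5 senescent (squares) arrays, with mean and SD in black and the arrays' 60th percentiles as a grey band. Senescent values lie above all proliferating values on both probe sets of FGF9 and FGF2 and on FGF7 205782_at, and below them on FGF5 208378_x_at and 210310_s_at.

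FGF1, or acidic FGF, which can bind all FGF receptors, gave differences from 0.05 to 0.79 on its 3 probe sets, none of which had low signal. Probe set 205117_at read 7.81, 7.13, 7.69, 7.55 and 7.62 in proliferating and 8.20, 8.36, 8.69, 8.41 and 8.11 in senescent cells, without overlap. It rose by 0.79 (SE 0.15, 1.73-fold, limma's adjusted p = 0.0021), although not with the ACTB covariate (0.39, SE 0.14, adjusted p = 0.086). On 1552721_a_at the groups, 8.56 to 8.87 and 8.84 to 9.20, overlapped slightly, and the rise of 0.30 (SE 0.09, adjusted p = 0.024) was as large with that covariate but no longer passed (0.32, SE 0.14, adjusted p = 0.17). Arrays centred on housekeeping genes also removed this call (0.22, adjusted p = 0.14). The third probe set, 208240_s_at, differed by 0.05 (95% confidence interval -0.36 to 0.45, adjusted p = 0.84).

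FGF5, known from the hair follicle as a signal that ends hair growth, was the only member with called decreases. Its probe set 208378_x_at read 9.73, 9.72, 9.79, 9.72 and 10.17 in proliferating and 9.17, 9.45, 9.41, 9.47 and 9.20 in senescent cells. The groups did not overlap, and proliferating 5 was the highest array. FGF5 fell by 0.49 on that probe set (SE 0.10, limma's adjusted p = 0.0047) and by 0.43 on 210310_s_at (SE 0.11, adjusted p = 0.012). The remaining probe set 210311_at, whose groups overlapped between 11.21 and 11.42, differed by -0.18 (95% confidence interval -0.40 to 0.03, adjusted p = 0.18). With the ACTB covariate neither decrease passed (-0.47, SE 0.16, adjusted p = 0.083, about as large as before, and -0.26, SE 0.15, adjusted p = 0.35).

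Because probe sets of the same ligand lie on the same arrays, the gap between them was compared between the groups for 9 pairs of ligand probe sets, chosen after the values were seen. The FGF7 and FGF9 pairs each hold a probe set with low signal in proliferating cells, where the floor shortens differences, and nothing is read from them. Among the other 7 pairs, the gap between FGF1 205117_at and 208240_s_at changed by 0.75 (exact permutation p = 0.00794, adjusted over 9 pairs 0.0179). The gap between FGF1 1552721_a_at and 205117_at changed by -0.49 (exact permutation p = 0.0159, adjusted 0.0286). For FGF5 the gap to 210311_at changed by -0.25 from 210310_s_at (exact permutation p = 0.00794, adjusted 0.0179) and by -0.31 from 208378_x_at (exact permutation p = 0.0317, adjusted 0.0476). The third pair of FGF1 (0.26, adjusted exact permutation p = 0.241), the third of FGF5 (-0.05, adjusted 0.595) and the FGF2 pair (-0.30, adjusted 0.0714) did not pass. In the deposited values FGF1 and FGF5 probe sets thus shifted unequally, which does not show that any of them stayed the same. The gaps were not tested with the ACTB covariate, under which FGF1 205117_at differed by 0.39 and 1552721_a_at by a similar 0.32.

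FGF10, the FGF7 relative that drives lung branching, was represented by 1 probe set with values of 2.14 to 2.21 over all 10 arrays. Its difference was 0.02 (95% confidence interval -0.01 to 0.05, adjusted p = 0.25). FGF18, a ligand of skeletal and alveolar development, had low signal in both groups on all 6 of its probe sets, with values between 1.43 and 3.17. None of the 6 was called by limma (0 at an unadjusted p below 0.05), and their differences ranged from 0.01 to 0.13. Differences that stay within such signal could be missed, whereas a rise out of low signal was called on FGF9 239178_at (3.03 to 4.97). The low values do not show that the transcripts were absent.

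Promoter windows are shown for FGF2 and FGF7, which rose together, and for FGF5, which fell on 2 of 3 probe sets, to set their sequence beside their expression. Each runs 5′ to 3′ over the 250 bases before the annotated start, from RefSeq on GRCh38.p14: FGF2 at chr4:122826581-122826830 (plus strand), FGF7 at chr15:49422992-49423241 (plus strand) and FGF5 at chr4:80266338-80266587 (plus strand). Capitals mark matches, on either strand, to the CCAAT box (CCAAT) and the GC box (GGGCGG).
FGF2: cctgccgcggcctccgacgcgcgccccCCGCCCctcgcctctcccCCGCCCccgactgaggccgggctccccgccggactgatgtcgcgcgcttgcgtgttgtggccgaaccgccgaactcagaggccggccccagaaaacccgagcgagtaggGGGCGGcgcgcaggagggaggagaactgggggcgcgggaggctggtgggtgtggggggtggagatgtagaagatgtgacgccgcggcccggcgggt
FGF7: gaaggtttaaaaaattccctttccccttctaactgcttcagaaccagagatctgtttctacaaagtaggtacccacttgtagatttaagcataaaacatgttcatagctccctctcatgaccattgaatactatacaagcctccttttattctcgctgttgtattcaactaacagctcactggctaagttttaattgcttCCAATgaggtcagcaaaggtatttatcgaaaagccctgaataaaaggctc
FGF5: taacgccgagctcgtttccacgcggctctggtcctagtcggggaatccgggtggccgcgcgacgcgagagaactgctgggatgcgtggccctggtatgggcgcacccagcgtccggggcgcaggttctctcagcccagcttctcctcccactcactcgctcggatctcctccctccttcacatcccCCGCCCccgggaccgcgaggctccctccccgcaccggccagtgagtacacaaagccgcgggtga
The FGF2 and FGF5 windows are rich in G and C, 75.2% and 68.8%, with 33 and 27 CpG dinucleotides, whereas the FGF7 window has 38.4% G and C and 2 CpG dinucleotides. The median of all 27305 windows was 58.0% and 11. The GC box occurs 3 times in FGF2, once in FGF5 and not in these letters of FGF7, which instead holds 1 CCAAT box, and 42.3% and 33.0% of all windows hold these motifs. The TATA box (TATAAA), AP-1 site (TGANTCA) and E-box (CACGTG), in 11.1%, 6.6% and 6.49% of all windows, were found in none of the 3 windows, and no letters were shared between matches of different motifs. Thus FGF2 and FGF7, which both rose more than 2-fold, have windows of opposite composition, and the FGF2 window is closer to that of FGF5. Of the 10 genes, 8 were examined this way, without FGF9 and FGFR1.

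FGFR1, the main FGF receptor of fibroblasts, had 7 probe sets, of which limma called 0 (0 at an unadjusted p below 0.05). On 226705_at, the probe set with the highest mean, proliferating arrays read 10.01, 9.66, 10.04, 9.91 and 9.98 and senescent arrays 10.03, 9.89, 9.93, 9.77 and 9.59. The groups overlapped, and the difference was -0.08 (95% confidence interval -0.30 to 0.14, adjusted p = 0.51). Probe set 210973_s_at, with 9.20 ± 0.26 and 9.21 ± 0.16 (SD, n = 5 each), differed by 0.01 (95% confidence interval -0.29 to 0.30). Over the 7 probe sets the intervals reached from -0.47 to 0.34, so the ratio of senescent to proliferating signal lay between 0.723 and 1.27 by the widest bounds. With the ACTB covariate 226705_at fell by 0.35 (SE 0.09, adjusted p = 0.026), and the other 6 stayed uncalled.

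FGFR2, the receptor whose isoforms separate epithelial from mesenchymal FGF responses, had 11 probe sets that disagreed. Probe set 208229_at read 9.86, 9.92, 9.96, 9.99 and 9.83 in proliferating and 10.51, 10.62, 10.50, 10.62 and 10.50 in senescent cells, without overlap. It rose by 0.64 (SE 0.04, 1.56-fold, limma's adjusted p = 1.5e-06). The other 10 FGFR2 probe sets lay between 1.90 and 2.93 on all arrays, at low signal in both groups, and differed by 0.01 to 0.04 with 0 called. The mean of all 11 rose by 0.08 (adjusted p = 0.00028). A rise of FGFR2 therefore rests on 208229_at alone. Whether that probe set reports FGFR2 was not tested, and the count of 6 genes that rose includes FGFR2 on that basis.

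FGFRL1 encodes an FGF receptor that binds ligand but lacks the tyrosine kinase domain. Its probe set 223321_s_at read 3.29, 3.27, 3.31, 3.30 and 3.71 in proliferating and 3.79, 3.93, 3.81, 3.83 and 4.07 in senescent cells. The groups did not overlap, but both had low signal. It rose by 0.51 (SE 0.09, 1.43-fold, limma's adjusted p = 0.0022), and the second probe set, 223648_s_at, differed by 0.02 (adjusted p = 0.35). A filter at the 60th percentile removed this gene from the test.

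**Figure D3:**
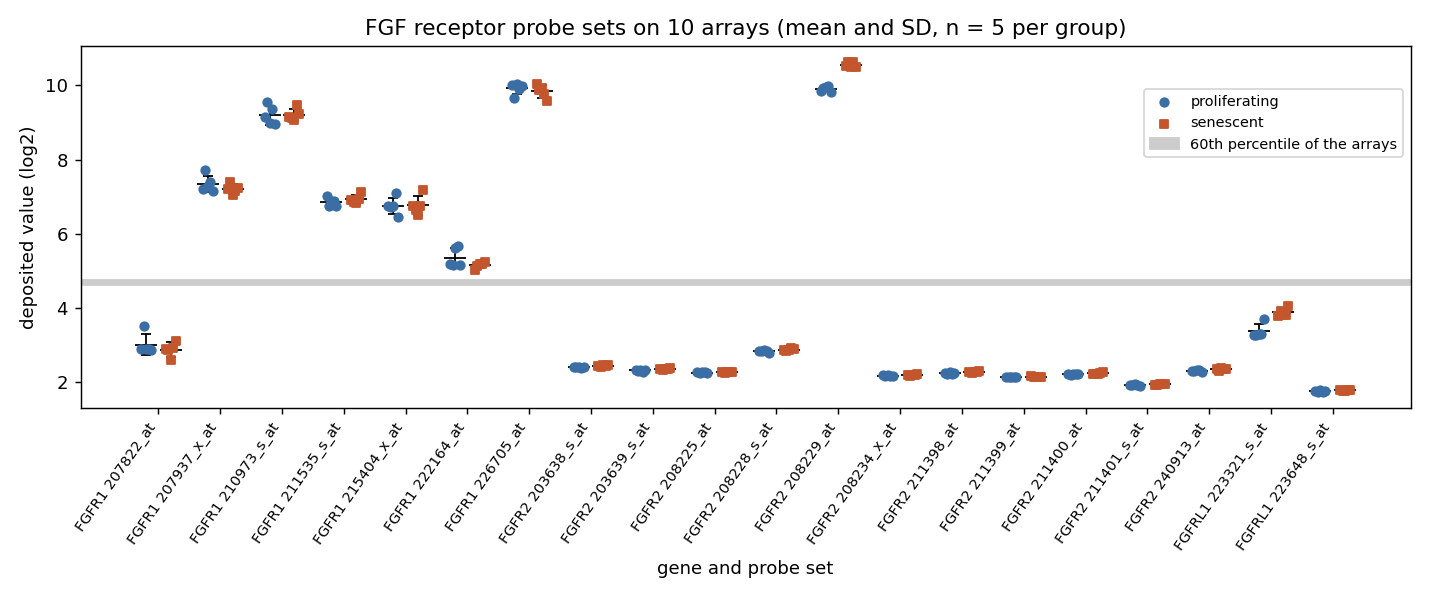
Deposited log2 values of all probe sets of FGFR1, FGFR2 and FGFRL1 on 5 proliferating (circles) and 5 senescent (squares) arrays, with mean and SD in black and the arrays' 60th percentiles as a grey band. FGFR2 208229_at is the only FGFR2 probe set above the band, and 6 of the 7 FGFR1 probe sets lie above it with overlapping groups.

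The other genes of the pathway were taken from 8 lists of ligands, partners, carriers, enzymes, relay proteins, targets and splicing factors, with 99 of 108 genes measured. Of these 30 rose and 23 fell, read at each gene's probe set with the highest mean, against 19.4% higher and 18.6% lower among all genes. With the ACTB covariate 16 rose and 18 fell, so 14 rises and 5 falls no longer passed. Calls among all probe sets also dropped with that covariate, from 30.5% to 22.1%. The remaining 11 secreted ligand genes, FGF3, FGF4, FGF6, FGF8, FGF16, FGF17 and FGF19 to FGF23, had low signal in both groups, with values from 1.51 to 3.04 and 0 called by limma (1, FGF20, at an unadjusted p below 0.05). Among the 4 intracellular FGF homologous factors, which act on ion channels rather than receptors, 2 rose. FGF11 rose from 3.93 ± 0.60 to 5.21 ± 0.37 (SD, n = 5 each; difference 1.28, SE 0.30) and FGF14 rose by 0.43 (SE 0.12). With the ACTB covariate neither passed (0.90, SE 0.45, adjusted p = 0.25, and 0.21, SE 0.16, adjusted p = 0.53). The FGF14 rise also did not pass with the replicate number as a block (0.43, SE 0.15, adjusted p = 0.10).

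Of 9 measured receptors and membrane partners 2 rose and 2 fell (median 0.02). FLRT3, a membrane protein that binds FGF receptors, rose from 4.16 ± 0.32, a low signal, to 6.43 ± 0.34 (SD, n = 5 each), a difference of 2.27 (SE 0.20, limma's adjusted p = 1.4e-05). N-cadherin (CDH2), which can bind FGFR1, fell by 1.06 (SE 0.04). FLRT1 fell by 0.67 at low signal in both groups. FGFR3 (2.46 ± 0.03 and 2.69 ± 0.53, with senescent 1 at 3.64) and FGFR4 (2.02 ± 0.01 and 2.03 ± 0.03; SD, n = 5 each) had low signal in both groups.

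Among the 14 carriers and heparan sulfate proteoglycans, on which FGF ligands are held at the cell surface, 3 rose and 4 fell (median 0.03). Syndecan-1 (SDC1) read 10.43, 10.19, 10.31, 10.20 and 10.80 in proliferating and 6.39, 6.65, 6.67, 6.28 and 5.59 in senescent cells. It thus fell by 4.07 (SE 0.21, 16.8-fold lower, limma's adjusted p = 5.0e-07) with the groups far apart. The glypican genes GPC6 and GPC2 fell by 3.18 (SE 0.07, low signal in senescent cells) and 1.58 (SE 0.10). Syndecan-4 (SDC4), named after its value was seen, fell by 1.13, and HSPG2 (perlecan), also named afterwards, rose by 1.07.

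Enzymes that build and edit heparan sulfate rose in 4 and fell in 4 of 20 cases (median 0.04). HS2ST1, named after its value was seen, is counted as a fall, although 1 of its 4 probe sets was called higher. SULF1, an extracellular sulfatase that removes sulfate groups needed for the FGF receptor complex, read 10.17, 9.92, 9.96, 9.96 and 9.33 in proliferating and 6.49, 6.23, 6.68, 6.67 and 6.35 in senescent cells. It fell by 3.38 (SE 0.16, 10.4-fold lower, limma's adjusted p = 2.5e-07), without overlap of the groups. HS3ST3A1, a 3-O-sulfotransferase gene, fell by 1.57 (SE 0.11), and NDST1, which starts the sulfation of the chain, rose by 0.93 (SE 0.14), or by 0.34 as the mean of its 3 probe sets (adjusted p = 0.046).

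Of 16 measured adaptor and RAS-ERK relay genes, of 22 listed, 9 rose and 3 fell (median 0.15 against 0.02 over all genes). The kinase gene ARAF rose by 1.06 (SE 0.11) and the adaptor gene SHC1 by 0.80 (SE 0.04), and HRAS fell by 0.80 (SE 0.18; -0.39 with adjusted p = 0.33 with the ACTB covariate). GRB2, the adaptor that couples FRS2 to RAS activation, was named after its value was seen and rose by 0.56.

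Feedback inhibitors and transcriptional targets rose in 10 and fell in 6 of 20 cases (median 0.21). DUSP6, the ERK phosphatase gene that FGF signalling typically induces, read 9.13, 8.81, 9.20, 9.20 and 8.80 in proliferating and 11.63, 11.39, 11.55, 11.59 and 11.47 in senescent cells. It rose by 2.50 (SE 0.10, 5.64-fold, limma's adjusted p = 7.5e-08), and DUSP4, a related phosphatase gene with low signal in proliferating cells, rose by 3.25 (SE 0.20). Named after their values were seen, the sprouty genes SPRY4, SPRY2 and SPRY1 rose by 1.14, 0.69 and 0.68 and the ETS factor gene ETV5 by 0.86. Of these SPRY1 missed the threshold under the ACTB covariate (0.60, SE 0.35, adjusted p = 0.35). Other targets went down: IL17RD, a membrane inhibitor of FGF signalling, fell by 1.88 (SE 0.38), and with the ACTB covariate the difference was about as large but did not pass (-1.82, SE 0.61, adjusted p = 0.075), and EGR1 and MYC, also named afterwards, fell by 1.58 and 1.11. These genes respond to many growth factors, and which signal they followed was not tested.

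Splicing factors that influence the choice of FGFR exons fell in 4 of 5 measured cases and rose in 0 (median -0.87), against 18.6% lower among all genes. PTBP2, HNRNPM and PTBP1 fell by 1.16, 0.98 and 0.87. RBFOX2, named after its value was seen, fell by only 0.18 and did not pass with the ACTB covariate (-0.16, SE 0.07, limma's adjusted p = 0.15). ESRP1, the epithelial factor that favours the FGFR2 isoform answering to FGF7 and FGF10, had low signal in both groups (2.61 ± 0.01 and 2.64 ± 0.02, SD, n = 5 each). Of the 10 epithelial markers EPCAM fell by 2.31 and KRT19 by 1.26, SFTPC and SFTPB rose by 0.34 and 0.13 (SFTPB not with the ACTB covariate, adjusted p = 0.33), and the list's summed log2 value was 37.8 to 38.1 in proliferating and 34.4 to 35.7 in senescent samples.

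**Figure D4:**
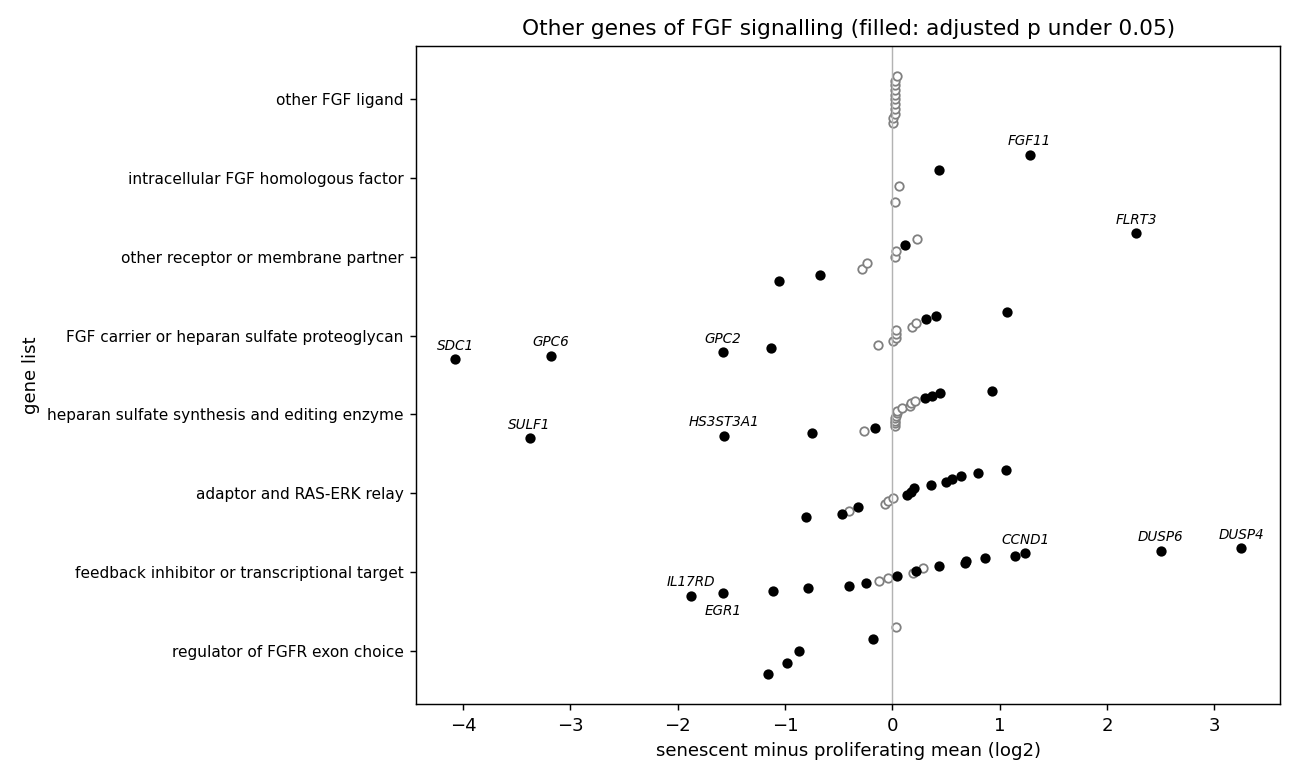
Each point is a gene of FGF signalling outside the 10 members, placed by its senescent minus proliferating difference (log2, horizontal axis) in its list (vertical axis), and filled where the adjusted threshold was passed. The genes furthest from 0 are named: SDC1, GPC6 and SULF1 lie far to the left and DUSP4, DUSP6 and FLRT3 far to the right, and the other FGF ligands lie at 0.

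Genes next to the members were read as well, by a rule set after the member values were known: the nearest protein-coding gene on each side in RefSeq. FGF1 lies beside SPRY4, which rose by 1.14 as given above, and ARHGAP26, which rose by 1.15 (SE 0.16) at low signal in both groups. BBS12, on the other side of FGF2 from NUDT6, rose by 0.99 (SE 0.16), and by 0.48 with the ACTB covariate (adjusted p = 0.0054). FGF5 lies between PRDM8, which fell by 2.40 (SE 0.15), and CFAP299, which rose from a low signal of 3.01 ± 0.37 to 5.49 ± 0.39 (SD, n = 5 each). Around FGF7, FAM227B and DTWD1 differed by 0.04 and 0.17 and were not called (limma's adjusted p = 0.22 and 0.15), and beside FGF9 MICU2 rose by 0.26 (SE 0.04). Beside the low-signal ligand genes, NNT and MRPS30 (FGF10) fell by 0.65 and 0.33 and NPM1 (FGF18) fell by 0.23, and under the ACTB covariate MRPS30 missed the threshold (adjusted p = 0.066). Beside FGFR1, TACC1 rose by 0.69 (SE 0.05) and LETM2 differed by 0.06. WDR11 and ATE1 beside FGFR2 differed by 0.11 and -0.04 and RNF212 beside FGFRL1 by -0.01, none of them called.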

How the data were processed

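Total RNA was extracted with Trizol and labelled with biotin by the standard Affymetrix procedure, per the labels' protocols. The deposited log2 values give 1 value per probe set and array, and Partek and GCRMA, which corrects background by probe composition, are listed in the submitters' processing notes. Their versions and settings were not found, and base 2 follows from values that span 0.62 to 16.17. GCRMA pulls weak probe sets towards a floor, which limits what low signals can show. No detection calls, scan dates or scanner files were used, so a scan batch was not tested.

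Symbols came from the annotation table of the platform. All 54613 probe sets other than controls were fitted without a filter on low values, since a filter would choose members through the group in which they are high. Senescent and proliferating arrays were compared (limma 3.58.1 lmFit and eBayes, two-sided, under R 4.3.3), p-values were adjusted by Benjamini-Hochberg and called below 0.05, and single probe sets with an exact permutation test. Every member was named, and up to 3 called genes of each pathway list with the largest differences, 20 in all. Other called pathway genes are marked as named afterwards. The marker genes given with values, and FGF20, FGFR3, FGFR4 and ESRP1, were named outside this rule. Members, lists and alternatives were chosen with earlier results of these data known. In simulated data for 5 senescent against 5 proliferating arrays over 54613 probe sets, on which the fit was tested, it called 70%, 92%, 100% and 100% of 50 probe sets changed by 0.5, 1, 2 and 4 (log2), and 10 of 191 calls were false. The simulated noise was independent, and far fewer probe sets were changed than were called in the real data. These shares therefore do not carry over to the real arrays. Figures used Python 3.11.15 and matplotlib 3.10.9.

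Alternatives were filters at the 40th and 60th percentile, centring on all probe sets or on housekeeping genes, quantile normalisation, array weights, an ACTB covariate, a robust eBayes with a trend, a replicate block, 4 against 4 arrays, leaving out each array in turn, exclusion of shared probe sets and averaging of probe sets per gene.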

Additional observations from a re-analysis of the deposited data

Results flagged for a closer look

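Among 120 groups of 5 arrays, the 2 groups of each member probe set and named list gene, 9 had an array set apart from the other 4 by Dixon's test, of which 4 were member probe sets. Chance flags about 1 in 20 groups. Proliferating 5 stood apart for FGF5 208378_x_at (10.17 against 9.72 to 9.79), FGF9 206404_at (5.61 against 6.37 to 6.40), FGFRL1 223321_s_at (3.71 against 3.27 to 3.31) and CDH2 (12.83 against 12.70 to 12.72). Without that array FGF5 fell by 0.40 (limma's adjusted p = 0.0023), FGF9 rose by 2.81 (adjusted p = 1.6e-06) and FGFRL1 rose by 0.59 (adjusted p = 6.7e-05). Proliferating 2 stood apart for FGFR1 207822_at, at 3.52 against 2.87 to 2.91, all low signals. Senescent 5 stood apart for FGF14 (5.82 against 6.30 to 6.34), SHC1 (12.58 against 12.73 to 12.77) and PTBP1 (11.80 against 11.54 to 11.60), and senescent 2 for ARAF (7.41 against 7.79 to 7.90).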

How the results depend on the processing

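The calls of FGF9, FGF2, FGF7 205782_at, FGFR2 208229_at and FGFRL1 223321_s_at kept their direction and passed under each alternative in which they could be fitted, and no called result reversed. Uncalled members did change sign: FGF5 210311_at ran from -0.37 to 0.09, FGFR1 207822_at from -0.21 to 0.29 and FGFR1 207937_x_at from -0.22 to 0.15, and several low-signal FGF18, FGF10 and FGFR2 probe sets did so near 0. FGF9 ranged from 2.45 to 3.06 and FGF7 from 0.83 to 1.94, read at 206404_at and 205782_at or, under averaging, as the mean of the gene's probe sets. The 0.83 of FGF7 and the -0.37 of FGF5 are such means, not values of the named probe sets. Leaving out each array in turn, 206404_at ranged from 2.81 to 3.04 and 205782_at from 1.81 to 1.94. The ACTB covariate left 1 member probe set called lower instead of 2, FGFR1 226705_at, which also made 1 member gene lower instead of 0, and it left 16 pathway genes higher instead of 30. Among all probe sets it left 12083 calls instead of 16656. Without shared probe sets, which leaves 18 members, 5 member probe sets were higher and 0 lower (9655 calls among all probe sets). With probe sets averaged per gene 1 member gene was lower, FGF5 by 0.37 (adjusted p = 0.0068). That averaging moved called values by over 1.5 times for FGF7 (0.83), FGFR2 (0.08), FGFRL1 (0.26), FGF11 (0.72), FGF14 (0.12), NDST1 (0.34), ARAF (0.63), DUSP4 (2.01), IL17RD (-0.99), HNRNPM (-0.45) and PTBP1 (-0.50), all still called. Leaving out each array in turn gave 8 to 11 member probe sets higher, 2 lower throughout, 5 to 6 member genes higher, 24 to 32 pathway genes higher and 23 lower, and 15412 to 19575 calls among all probe sets. FGF1 1552721_a_at lost its call without proliferating 1, 4 or 5 or senescent 3, 4 or 5 (0.25 to 0.29, adjusted p = 0.050 to 0.059), and FGF14 without proliferating 2 or 4 or senescent 1, 3 or 4 (0.37 to 0.41, adjusted p = 0.050 to 0.055). Without senescent 2 the low-signal FGFR2 probe sets 203638_s_at and 211398_at were called higher by 0.04 each. Same-numbered arrays were not treated as pairs in the main fit. Correlations of their deviations were -0.061 to 0.083, which cannot show whether the arrays were paired by design. The replicate block gave 9 and 2 member probe sets and 26 and 23 pathway genes higher and lower, and 15235 calls among all probe sets, and among the members and named genes it ended only the FGF14 call (0.43, adjusted p = 0.10). Centring on housekeeping genes moved the median difference by -0.081 and gave 42.6% instead of 51.6% of calls higher. Of the 24 measured housekeeping genes 5 rose and 10 fell, so this centring does not rest on unchanged genes. Signal near the floor limits FGF10, FGF18, FGFRL1 and most FGFR2 probe sets.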
